A study of Mus musculus with 10 samples.

Results

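The costimulatory TNF receptors and their ligands were followed in YUMMER1.7 melanomas of wild-type and *Siah2* KO mice. The members were the rows of the deposited table with the symbols of 5 receptors, *Tnfrsf4*, *Tnfrsf9*, *Tnfrsf18*, *Tnfrsf14* and *Tnfrsf8*, and 4 ligands, *Tnfsf4*, *Tnfsf18*, *Tnfsf14* and *Tnfsf8*. All 9 were found among 770 probes, and all 9 were kept in the comparison whatever their level. YUMMER1.7 is a mouse melanoma line with mutant BRAF and a high load of mutations, and 400000 of these cells were placed under the skin of each mouse. The hosts were *Siah2* WT mice or *Siah2* KO mice, which lack this ubiquitin ligase in all of their tissues, so that the injected tumor cells of both groups carried *Siah2*. For the growth experiment with these cells the mice were males aged 5 to 7 weeks. The tumors, 5 of each genotype, were taken at day 11 by the sample labels and at day 10 by the legend of the experiment. From each tumor, 100 ng of RNA were hybridized to the NanoString mouse panel for immune genes of cancer, in which single molecules are counted by fluorescent barcodes. The tumors are called WT2 to WT6 and KO1, KO2, KO3, KO5 and KO6 after their labels.

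The TNF receptor superfamily holds cell surface receptors that bind trimeric ligands of the TNF superfamily. The costimulatory members have no death domain and recruit TRAF adaptors, which lead to NF-κB and MAP kinase signals that prolong the division and survival of T cells after the antigen receptor has been engaged. OX40 (*Tnfrsf4*), 4-1BB (*Tnfrsf9*) and CD30 (*Tnfrsf8*) appear on activated T cells. GITR (*Tnfrsf18*), OX40 and 4-1BB are high on regulatory T cells, and HVEM (*Tnfrsf14*) is present on many lymphoid and myeloid cells. Their ligands are made mostly by antigen presenting cells and, for LIGHT (*Tnfsf14*), also by activated T cells and neutrophils. Agonist antibodies to several of these receptors have been developed for tumor therapy.

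The values are normalized counts, scaled by the authors to reference genes, with a background constant subtracted and results below 1 raised to 1. Before scaling, the counts after background summed to between 382885 and 581616 per tumor, and the factor that 1 barcode was multiplied by lay between 0.918 and 1.32 in WT and between 1.03 and 1.6 in *Siah2* KO tumors. The highest negative control probe of a tumor, brought to the same scale, lay between 2.31 and 15.8. *Siah2* was not analysed here, so the genotype was not checked against the data. Of the melanocytic genes, only *S100b*, *Mcam* and *Cspg4* were measured, which other cells express as well, and their sum was between 438 and 594 in WT and between 224 and 405 in *Siah2* KO tumors. *Pmel*, *Mlana*, *Tyr*, *Dct* and *Sox10* were not analysed here. The summed level of 8 leukocyte genes was between 4153 and 5030 in WT and between 6134 and 9289 in *Siah2* KO tumors, and that of 8 T cell genes was between 457 and 586 and between 602 and 1140. In RNA of whole tumors, more cells of a type and more RNA per cell cannot be told apart.

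In *Siah2* KO tumors the receptors *Tnfrsf14*, *Tnfrsf9* and *Tnfrsf8* rose, and no member fell. *Tnfrsf14* increased 1.87-fold, *Tnfrsf9* 2.10-fold and *Tnfrsf8* 1.68-fold on the log2(value + 1) scale. The receptors *Tnfrsf4* and *Tnfrsf18* and the 4 ligands did not pass the threshold. The test was limma's two-sided test on log2(value + 1) with Benjamini-Hochberg adjustment over all 770 probes and a threshold of 0.05 for the adjusted p. Of all probes, 41.0% passed it, 31.3% as higher and 9.74% as lower, so that 3 of 9 members is not far from the share of the whole panel. The median log2 fold change was 0.076 over the members and 0.24 over all probes. Only *Tnfrsf14* had groups that did not overlap, which held for 31.6% of all probes. When the endogenous probes of all tumors were brought to 1 common median, the median log2 fold change of all probes shifted by −0.25, and this median scaling left only *Tnfrsf14* among the members called. The higher genes then made up 51.7% of all calls, against 76.3% on the deposited scale, and 45.8% after quantile normalization.

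**Figure D1:**
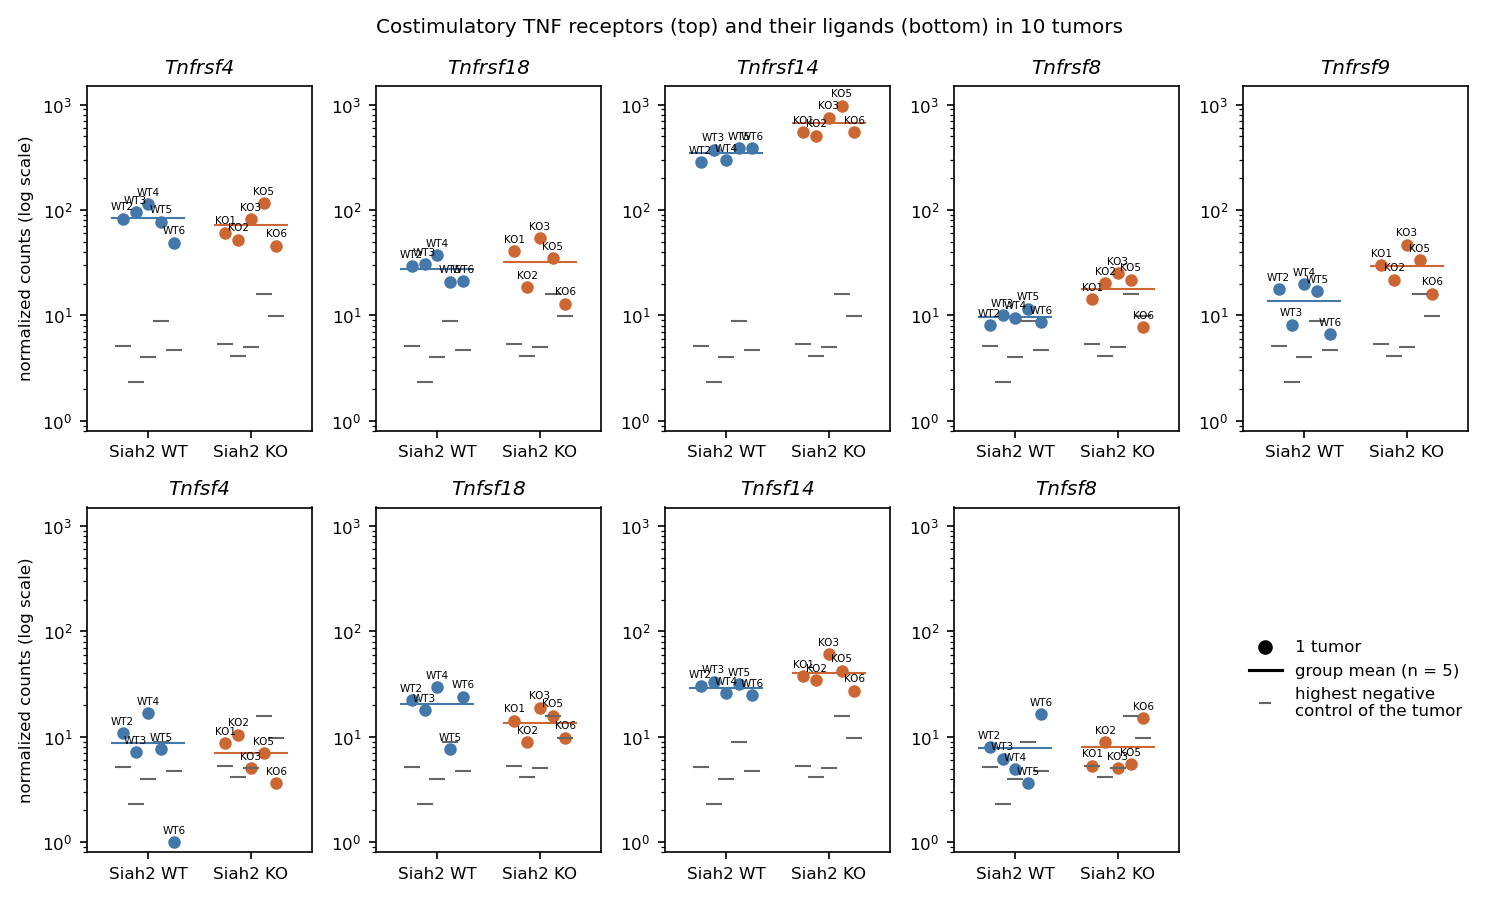
Normalized counts of the 5 receptors (top) and 4 ligands (bottom) on a log axis, with 1 point per tumor, a line at the mean of each group of 5 and a dash at the highest negative control of each tumor. All 5 *Siah2* KO tumors lie above all WT tumors for *Tnfrsf14*, 4 of 5 do so for *Tnfrsf9*, *Tnfrsf8* and *Tnfsf14*, and the points of *Tnfsf4* and *Tnfsf8* lie near the negative controls.

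The genes of these molecules are grouped in the mouse genome. All 5 receptors and *Tnfsf8* lie on chromosome 4, *Tnfsf4* and *Tnfsf18* on chromosome 1 and *Tnfsf14* on chromosome 17. *Tnfrsf4* and *Tnfrsf18* are neighbours with 0 protein-coding genes between them, and so are their ligands *Tnfsf4* and *Tnfsf18*. The RefSeq table (GRCm38.p6) held 9 starts for 8 of the members, and none was used for *Tnfsf4*. The 250 bases upstream of each start were searched on both strands for an NF-κB-like motif, GGG and CC with any 5 bases between them, and an AP-1-like motif, TGANTCA, since NF-κB and AP-1 act downstream of these receptors and of the T cell receptor. Of 32851 promoters whose sequence around the start had 300 bases, 45.8% held the first motif and 6.75% the second. The upstream sequences of *Tnfrsf9* and *Tnfrsf8*, which rose, and of *Tnfsf14*, the ligand of *Tnfrsf14*, are shown 5′ to 3′ on the strand of the gene, with matches to either motif in capitals. They lie at chr4:150919905-150920154 on the plus strand, chr4:145315165-145315414 on the minus strand and chr17:57194182-57194431 on the minus strand.
Tnfrsf9: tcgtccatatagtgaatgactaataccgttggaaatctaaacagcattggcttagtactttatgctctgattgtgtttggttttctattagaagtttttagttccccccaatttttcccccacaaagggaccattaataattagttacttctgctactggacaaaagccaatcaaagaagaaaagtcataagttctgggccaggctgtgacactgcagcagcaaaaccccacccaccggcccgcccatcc
Tnfrsf8: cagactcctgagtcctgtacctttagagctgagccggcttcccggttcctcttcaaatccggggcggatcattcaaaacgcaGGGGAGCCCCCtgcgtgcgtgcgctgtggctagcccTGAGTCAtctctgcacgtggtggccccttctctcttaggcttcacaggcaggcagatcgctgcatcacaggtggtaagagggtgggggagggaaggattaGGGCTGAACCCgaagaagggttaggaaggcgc
Tnfsf14: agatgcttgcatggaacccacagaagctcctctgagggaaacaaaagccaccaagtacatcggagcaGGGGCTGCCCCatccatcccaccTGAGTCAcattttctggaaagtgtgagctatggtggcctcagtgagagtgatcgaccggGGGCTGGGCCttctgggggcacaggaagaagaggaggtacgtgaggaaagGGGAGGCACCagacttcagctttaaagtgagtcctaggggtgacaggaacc
*Tnfrsf8* held 4 matches to the NF-κB-like motif, in pairs that overlap by all but 1 base, at 168 and 167 and at 32 and 31 bases before the start, and 1 match to the AP-1-like motif at 132 bases. *Tnfsf14* held 4 and 1 matches, with the AP-1-like motif at 160 bases. Upstream of its first start, shown above, *Tnfrsf9* held neither. A second start within the *Tnfrsf9* gene had GGGGATTTCC at 43 bases and TGAGTCA at 15 bases before it. *Tnfrsf14* held 1 match to the NF-κB-like motif, GGGCCCTCCC, at 148 bases, while *Tnfrsf4*, *Tnfrsf18*, *Tnfsf18* and *Tnfsf8* had none of either in these windows. The starts used for *Tnfrsf14*, *Tnfrsf4* and *Tnfsf8*, like the second start of *Tnfrsf9*, were not at the boundary of the gene. A match is a run of letters and not a measured binding site.

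*Tnfrsf14* encodes HVEM, which binds LIGHT and lymphotoxin α as well as the immunoglobulin family members BTLA and CD160. Its normalized counts were 286 in WT2, 374 in WT3, 299 in WT4, 385 in WT5 and 386 in WT6. In *Siah2* KO tumors they were 546 in KO1, 505 in KO2, 753 in KO3, 973 in KO5 and 545 in KO6. Every *Siah2* KO tumor was thus above every WT tumor, with KO5 and KO3 highest. The mean was 664 ± 198 (SD, n = 5) in *Siah2* KO and 346 ± 49.5 (SD, n = 5) in WT tumors. The log2 fold change was 0.90 (standard error 0.19, 95% interval 0.48 to 1.33, limma adjusted p = 0.0043), and the exact two-sided permutation p of 0.0079 was the smallest that 5 against 5 tumors allow. With any single tumor left out the adjusted p stayed between 0.0042 and 0.012, whereas scaling to the positive control probes in place of the reference genes gave 0.74 with an adjusted p of 0.16. Neutrophil genes moved in the same direction, with 3 of 5 (*Csf3r*, *Fpr2* and *Trem1*) called higher, none lower and the sum of the 5 between 312 and 364 in WT and between 659 and 1320 in *Siah2* KO tumors. Other myeloid lists were mixed. Of 7 macrophage genes 1 was called higher and 2 lower, and of 5 dendritic cell genes 1 was called higher and 0 lower. Beside these counts, 31.3% of all probes were called higher and 9.74% lower. The part of any of these lists in the level of *Tnfrsf14* was not tested.

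*Tnfrsf9* encodes 4-1BB, a receptor induced on T and NK cells by activation and also high on regulatory T cells. It had 17.6 normalized counts in WT2, 8.15 in WT3, 19.6 in WT4, 16.9 in WT5 and 6.65 in WT6. The level was 29.7 in KO1, 21.7 in KO2, 46.7 in KO3, 33.6 in KO5 and 16.0 in KO6. All *Siah2* KO tumors but KO6 were above the highest WT tumor, and KO6 lay among the WT tumors. The mean of 29.6 ± 11.8 (SD, n = 5) stood against 13.8 ± 5.93 (SD, n = 5) in WT, a log2 fold change of 1.07 (standard error 0.35, 95% interval 0.28 to 1.86, limma adjusted p = 0.034; exact permutation p = 0.032). The call was lost when WT3, WT6, KO1, KO3 or KO5 was left out, with adjusted p between 0.065 and 0.081, and after median scaling (0.82, adjusted p = 0.076). CD8 genes were also higher in *Siah2* KO tumors, where *Cd8a* rose from 56.3 ± 14.1 to 123 ± 25.4 and *Cd8b1* from 10.2 ± 5.52 to 34.1 ± 8.14 normalized counts (SD, n = 5 each). NK cell genes were higher as well, with 5 of 7 called higher and none lower, where 31.3% of all probes were called higher. Their sum was between 665 and 934 in WT and between 1166 and 1487 in *Siah2* KO tumors. Among WT tumors WT4, the highest for *Tnfrsf9*, had the lowest CD8 sum of 42.0 and the lowest NK sum of 665. Among *Siah2* KO tumors KO3, KO5 and KO1 were the highest for *Tnfrsf9* and also for both lists. Their NK sums were 1277, 1487 and 1259, and their CD8 sums were 154, 200 and 177. KO6, the lowest for *Tnfrsf9*, had the lowest NK sum of 1166 but not the lowest CD8 sum. The part of either list in the level of *Tnfrsf9* was not tested. The ligand of 4-1BB was not analysed here.

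*Tnfrsf8* encodes CD30, which is found on some activated T and B cells. WT tumors lay close together, with 8.01 in WT2, 10.1 in WT3, 9.52 in WT4, 11.6 in WT5 and 8.57 in WT6. *Siah2* KO tumors had 14.2 in KO1, 20.1 in KO2, 25.2 in KO3, 21.8 in KO5 and 7.77 in KO6. KO6 was below every WT tumor and below its own highest negative control, whereas the other 4 were above every WT tumor. The mean was 17.8 ± 6.89 (SD, n = 5) against 9.55 ± 1.39 (SD, n = 5), a log2 fold change of 0.75 (standard error 0.27, 95% interval 0.14 to 1.35, limma adjusted p = 0.049; exact permutation p = 0.056). The result was close to the threshold, and it passed in only 3 of 13 alternatives. Without KO6 the log2 fold change was 1.0 with an adjusted p of 0.0016, while leaving out any other tumor gave an adjusted p between 0.056 and 0.11.

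*Tnfrsf4* encodes OX40, which supports effector and memory T cells and is also high on regulatory T cells. It was measured at 82.7 in WT2, 94.9 in WT3, 114 in WT4, 77.6 in WT5 and 49.1 in WT6. The values of 60.8 in KO1, 52.1 in KO2, 82.1 in KO3, 116 in KO5 and 45.9 in KO6 covered the same range, with the highest and the lowest of the 10 tumors both in the *Siah2* KO group. Its log2 fold change was −0.26 (standard error 0.29, 95% interval −0.89 to 0.38, limma adjusted p = 0.50; exact permutation p = 0.44).

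*Tnfrsf18*, the gene of GITR, had 29.1 in WT2, 30.6 in WT3, 37.1 in WT4, 20.8 in WT5 and 21.1 in WT6. The *Siah2* KO tumors were spread more widely, with 40.8 in KO1, 18.5 in KO2, 54.3 in KO3, 35.1 in KO5 and 12.9 in KO6, so that 2 of them lay above and 2 below all WT tumors. The SD was 16.8 in *Siah2* KO and 6.86 in WT tumors (n = 5 each), around means of 32.3 and 27.7. The log2 fold change was 0.076 (standard error 0.36, 95% interval −0.73 to 0.88, limma adjusted p = 0.88), and its sign turned under median, quantile and positive control scaling.

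Among the ligands, *Tnfsf14*, which encodes LIGHT, had 30.0 in WT2, 33.5 in WT3, 26.0 in WT4, 31.4 in WT5 and 25 in WT6. It had 37.5 in KO1, 34.5 in KO2, 60.6 in KO3, 42.4 in KO5 and 27.4 in KO6, and again all *Siah2* KO tumors but KO6 were above the WT tumors. The means were 40.5 ± 12.5 (SD, n = 5) and 29.2 ± 3.6 (SD, n = 5). The log2 fold change of 0.42 did not pass the threshold (standard error 0.19, 95% interval −0.0046 to 0.84, limma adjusted p = 0.10; exact permutation p = 0.056). It passed only when KO6 was left out, at 0.54 with an adjusted p of 0.029.

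*Tnfsf18*, the ligand of GITR, had 22.4 in WT2, 17.9 in WT3, 29.7 in WT4, 7.61 in WT5 and 24.0 in WT6. The values were 14.2 in KO1, 8.92 in KO2, 18.9 in KO3, 15.8 in KO5 and 9.83 in KO6, all within the range that WT5 and WT4 set. The log2 fold change of −0.48 did not pass (standard error 0.34, 95% interval −1.23 to 0.27, limma adjusted p = 0.28), and it passed in 0 of 13 alternatives. With 1 tumor left out it passed only without WT5, at −0.78 with a limma adjusted p of 0.027. The value of WT5 was itself below the highest negative control of that tumor, 8.92. *Tnfsf18* exceeded this control of its tumor by more than 0.1 barcodes in 3 of 5 *Siah2* KO and 4 of 5 WT tumors. *Tnfsf4*, the ligand of OX40, ranged from 3.65 to 10.5 in *Siah2* KO tumors and from 1, the floor, to 16.9 in WT tumors, and it exceeded the highest negative control by more than 0.1 barcodes in 2 of 5 *Siah2* KO and 3 of 5 WT tumors. *Tnfsf8*, the ligand of CD30, ranged from 5.04 to 15.0 and from 3.65 to 16.3 and exceeded that control in 2 of 5 and 4 of 5 tumors. At such levels a difference was not detectable, and the 95% intervals of the log2 fold change were −1.22 to 1.12 for *Tnfsf4* and −0.78 to 0.92 for *Tnfsf8*.

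The tumors differed among themselves across several members. KO6 had the lowest value of the *Siah2* KO group for 6 of the 9 members, with *Tnfrsf14*, *Tnfsf18* and *Tnfsf8* as the exceptions, and it had the highest for *Tnfsf8*. Its T cell genes summed to 602, the lowest of that group. KO3 was the highest *Siah2* KO tumor for 5 members, with a T cell sum of 763. Among WT tumors, WT4 was highest for 5 members and WT6 lowest for 4.

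In each tumor, the log2 value of a ligand was subtracted from that of its receptor. As each probe has its own efficiency, the size of this value says nothing about molecules per molecule, and only its movement between tumors was described. *Tnfrsf14* minus *Tnfsf14* was 4.01 ± 0.36 in *Siah2* KO and 3.52 ± 0.25 in WT tumors (SD, n = 5 each). *Tnfrsf18* minus *Tnfsf18* was 1.07 ± 0.45 and 0.52 ± 0.57, and *Tnfrsf8* minus *Tnfsf8* was 1.08 ± 1.17 and 0.41 ± 0.87. In each of these 3 pairs, 2 of 5 *Siah2* KO tumors lay above all WT tumors, and for *Tnfrsf8* KO6 lay below all of them. *Tnfsf8* exceeded the highest negative control in only 6 of the 10 tumors, so that its pair rests partly on background. For *Tnfrsf18* minus *Tnfsf18* the highest WT value, 1.34, came from WT5, where *Tnfsf18* lay below that control. *Tnfrsf4* minus *Tnfsf4* was 3.18 ± 0.72 and 3.38 ± 0.78, with no *Siah2* KO tumor above the WT range and 2, KO1 and KO2, below it. The top of that range was WT6, where *Tnfsf4* was at the floor.

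**Figure D2:**
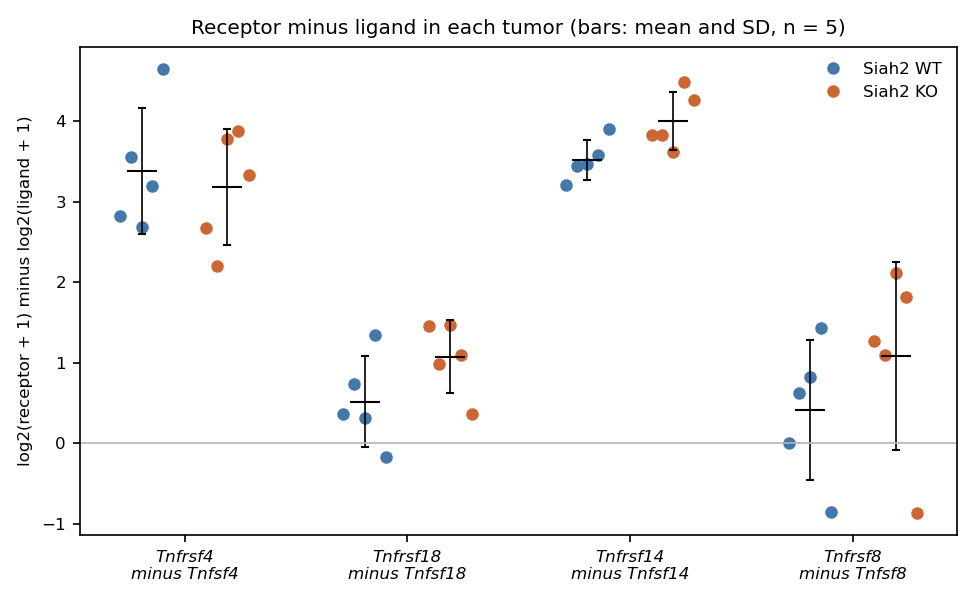
Difference between the log2(value + 1) of a receptor and that of its ligand, with 1 point per tumor and bars for the mean and SD of 5 tumors. The groups overlap in all 4 pairs, and the mean of *Siah2* KO tumors is higher by 0.49 for *Tnfrsf14*, by 0.56 for *Tnfrsf18* and by 0.68 for *Tnfrsf8*, whose ligand lay near background.

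Of the other partners of HVEM and LIGHT, 0 of 4 passed the threshold in limma, against 41.0% of all probes, and none did at an unadjusted p under 0.05. *Btla*, an inhibitory receptor for HVEM on lymphocytes, had 8.47 ± 4.67 (SD, n = 5) in *Siah2* KO and 15.8 ± 5.22 (SD, n = 5) in WT tumors (log2 fold change −0.97, limma adjusted p = 0.11). *Cd160*, found on NK and CD8 T cells, had 40.1 ± 12.3 and 29.0 ± 1.52 (SD, n = 5 each; 0.40, limma adjusted p = 0.14). *Ltbr*, the second receptor of LIGHT, had a log2 fold change of −0.090 and *Lta*, lymphotoxin α, of 0.057.

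To set the members against a level of immune RNA, the median log2 value of 8 T cell genes was subtracted in every tumor before the same fit. This median lay between 5.11 and 5.59 in WT and between 4.93 and 6.01 in *Siah2* KO tumors. It moved less than the single genes, whose median log2 fold change was 0.72 with 4 of 8 called higher. The subtraction took the log2 fold change of *Tnfrsf9* from 1.07 to 0.89, so a gain of 0.72 was not removed. Relative to this level, *Tnfrsf9* was the only member called, where 17.7% of all probes were called, 11.6% as higher and 6.1% as lower. All 5 *Siah2* KO tumors were then above all WT tumors (0.89, standard error 0.29, limma adjusted p = 0.035; exact permutation p = 0.0079). The share of all probes without overlap was not counted on this scale. This call was lost when WT3, WT6 or KO3 was left out, and it was kept in 9 of 14 alternatives. *Tnfrsf14* was at 0.73 (limma adjusted p = 0.078; exact permutation p = 0.040) and passed in 5 of 14 alternatives and when WT6 or KO1 was left out. *Tnfrsf8* was at 0.57 (limma adjusted p = 0.17) and *Tnfrsf4* at −0.43 (limma adjusted p = 0.30).

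The median log2 value of 8 leukocyte genes, subtracted in the same way, lay between 7.80 and 8.25 in WT and between 8.13 and 8.83 in *Siah2* KO tumors. It too moved less than the single genes, whose median log2 fold change was 0.54 with 5 of 8 called higher. The subtraction took *Tnfrsf14* from 0.90 to 0.56, so a gain of 0.54 was not removed. Relative to this level, *Tnfrsf14* was the only member called. It was higher by 0.56 (standard error 0.13, limma adjusted p = 0.0083; exact permutation p = 0.0079), again without overlap of the groups. Of all probes, 30.8% were called on this scale, 14.2% as higher and 16.6% as lower, and the share without overlap was not counted. The call was kept with each tumor left out (adjusted p between 0.0091 and 0.025). *Tnfrsf4* and *Tnfsf18* were at −0.60 (limma adjusted p = 0.082) and −0.82 (limma adjusted p = 0.090) on this scale and passed as lower with a pseudocount of 10. A floor of 20 says nothing about *Tnfsf18*, since it sets all 5 *Siah2* KO tumors to the same value, while *Tnfrsf4* passed with it. *Tnfsf14* was at 0.077 (limma adjusted p = 0.75).

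**Figure D3:**
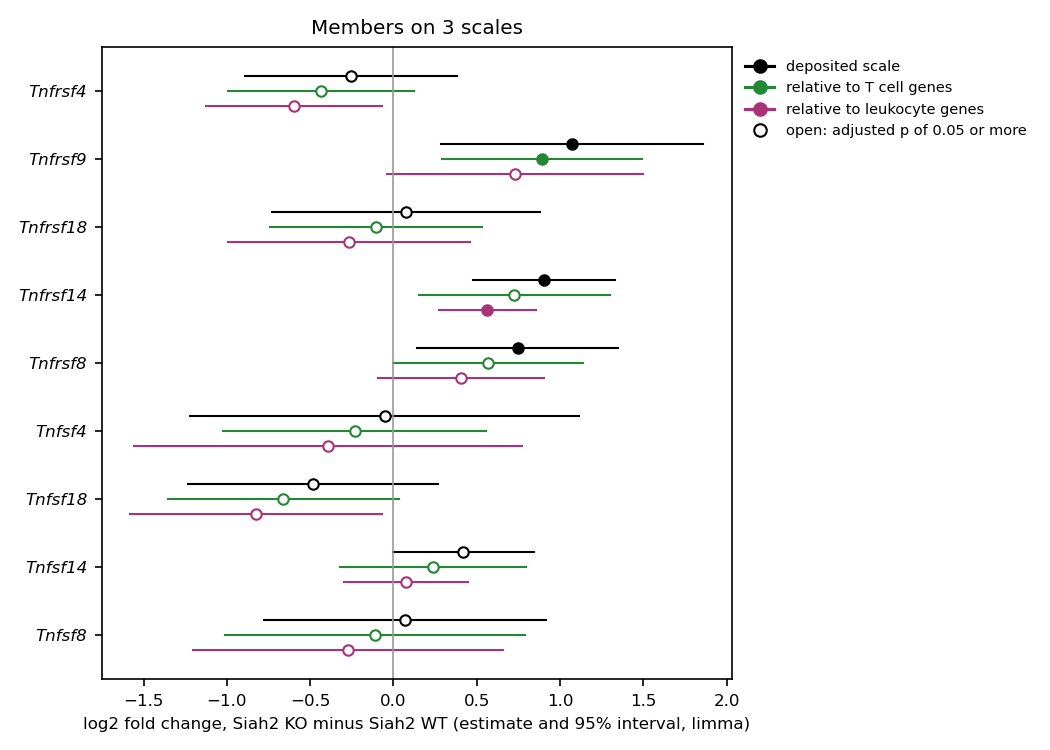
Log2 fold change of each member, *Siah2* KO minus WT, with its 95% interval from limma, on the deposited scale and relative to the T cell and leukocyte genes, with filled points at an adjusted p under 0.05. *Tnfrsf14* is filled on the deposited scale (0.90) and relative to leukocyte genes (0.56), *Tnfrsf9* on the deposited scale (1.07) and relative to T cell genes (0.89), and *Tnfrsf8* on the deposited scale only (0.75).

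OX40, GITR and 4-1BB are known to be high on regulatory T cells, whose defining factor is FOXP3. *Foxp3* had 69.3 in WT2, 53.0 in WT3, 67.3 in WT4, 63.1 in WT5 and 30.8 in WT6, and 25.3 in KO1, 26.5 in KO2, 21.5 in KO3, 46.9 in KO5 and 27.4 in KO6. It fell by 0.92 on the log2 scale (limma adjusted p = 0.018), and 4 of 5 *Siah2* KO tumors were below all WT tumors. Of the 6 genes of the regulatory T cell list, *Foxp3* and *Ccr4* were called lower and none higher, where 9.74% of all probes were called lower. The sum of the list was between 498 and 799 in WT and between 517 and 828 in *Siah2* KO tumors. Relative to *Foxp3*, 7 of 9 members were called, all higher, where 81.5% of all probes were, 80.4% as higher and 1.17% as lower, as the fall of *Foxp3* enters every gene. The largest change among the members was that of *Tnfrsf9*, at 1.99 (standard error 0.37, limma adjusted p = 1.4e-06). The members not called were *Tnfrsf4*, at 0.66 (standard error 0.37, limma adjusted p = 0.085), and *Tnfsf18*, at 0.43 (standard error 0.37, limma adjusted p = 0.26). The exact permutation test ordered the members differently, with a p of 0.024 for *Tnfrsf4*, where 4 of 5 *Siah2* KO tumors lay above all WT tumors, and of 0.063 for *Tnfrsf18*, 0.071 for *Tnfsf4* and 0.14 for *Tnfsf8*. The equal and unequal variance tests likewise called *Tnfrsf4* and not these 3.

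Among 25 other genes of the TNF superfamily on the panel, 4 rose and 0 fell, and the median log2 fold change was 0.21. Over all probes, 31.3% were called higher and 9.74% lower, with a median of 0.24. *Tnfsf15*, the ligand of the death domain receptor DR3, had 4.63 ± 1.62 normalized counts in WT and 19.3 ± 7.09 in *Siah2* KO tumors (SD, n = 5 each; log2 fold change 1.84, limma adjusted p = 0.00082). *Tnf* itself rose by 1.52 (limma adjusted p = 0.00030). *Fasl*, a death ligand of cytotoxic lymphocytes, rose from 11.9 ± 2.85 to 31.5 ± 7.12 (SD, n = 5 each; 1.33, limma adjusted p = 0.00079). *Tnfrsf12a*, the receptor of TWEAK, rose from 913 ± 26.4 to 1288 ± 143 (SD, n = 5 each; 0.49, limma adjusted p = 0.0023). The groups did not overlap for these 4 genes. *Tnfsf15*, *Tnf* and *Fasl* were also called under median, quantile and positive control scaling and *Tnfrsf12a* was not, while median scaling put 2 and quantile normalization 3 genes of the list lower. The costimulatory receptors *Cd27* and *Cd40* were at 0.48 (limma adjusted p = 0.063) and 0.52 (limma adjusted p = 0.056), and their ligands *Cd70* and *Cd40lg* at −0.54 (limma adjusted p = 0.30) and 0.40 (limma adjusted p = 0.58).

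**Figure D4:**
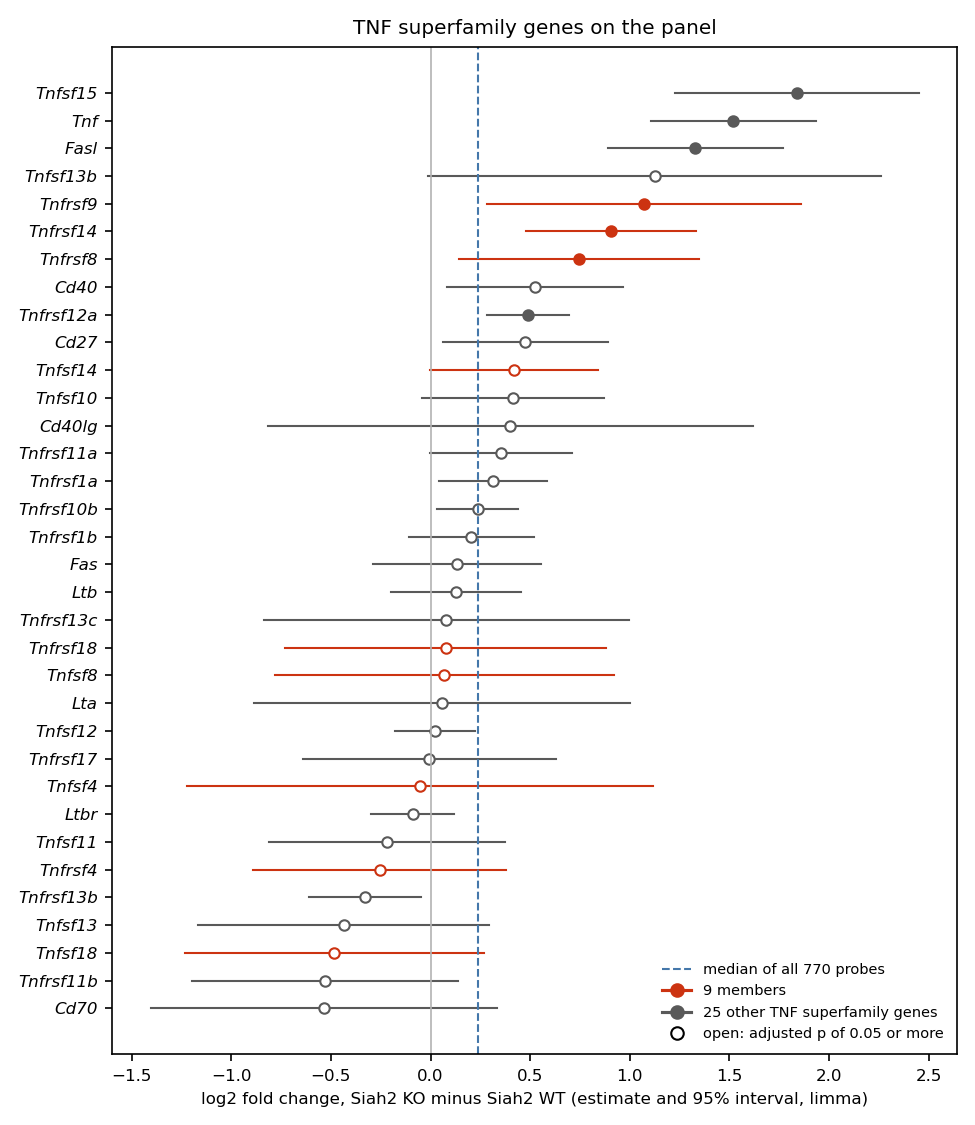
Log2 fold change, *Siah2* KO minus WT, with its 95% interval from limma for the 9 members and 25 other TNF superfamily genes, with filled points at an adjusted p under 0.05 and a dashed line at 0.24, the median of all 770 probes. The filled genes are *Tnfsf15*, *Tnf*, *Fasl*, *Tnfrsf9*, *Tnfrsf14*, *Tnfrsf8* and *Tnfrsf12a*, and all 7 are higher in *Siah2* KO tumors.

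Downstream of these receptors, 5 of 22 signalling genes rose and 0 fell on the deposited scale, with a median log2 fold change of 0.16. Over all probes, 31.3% were called higher and 9.74% lower, and the median was 0.24. *Tnfaip3*, which encodes A20, a brake on NF-κB that NF-κB itself induces, rose from 146 ± 9.75 to 277 ± 66.1 (SD, n = 5 each; 0.89, limma adjusted p = 0.0016). *Ikbke*, a kinase related to the IκB kinases, rose from 161 ± 16.9 to 254 ± 39.4 (SD, n = 5 each; 0.65, limma adjusted p = 0.0022). *Tank*, a TRAF binding adaptor, *Ikbkg*, the regulatory subunit of the IκB kinase complex, and *Chuk*, one of its kinases, rose by 0.30, 0.35 and 0.25. Under median scaling 2 genes of the list were higher and 4 lower, under quantile normalization 2 and 6, and under positive control scaling 0 were called, so that a direction of the whole list cannot be given. *Traf2*, the adaptor most of these receptors share, was at 0.093 (limma adjusted p = 0.50), and *Nfkb1*, *Nfkb2*, *Rel*, *Rela* and *Relb* did not pass.

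Of 7 genes listed as markers of activation, 5 rose, where 31.3% of all probes were called higher. The 5 were *Havcr2* (1.46), *Pdcd1* (1.37), *Lag3* (1.06), *Tigit* (0.97) and *Icos* (0.77, all log2 fold changes). *Ctla4* was at −0.082 (limma adjusted p = 0.79) and *Cd69* did not pass. Which cells of the tumor held this RNA was not tested.

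For the 5 members that averaged 20 normalized counts or more, the genes with the most similar pattern were sought by Pearson's r of log2(value + 1) over the 10 tumors among 601 probes that did so too, without a test. The values of a tumor share its RNA and its factor, and the r of the deviations from the group means is given second. *Tnfrsf4* was most like *Ctla4* (0.95 and 0.96), *Ccr7* (0.89 and 0.92) and *Irf4* (0.85 and 0.88). *Tnfrsf9* was most like *Ifng* (0.92 and 0.90), *Xbp1* (0.91 and 0.82) and *Bcl6* (0.89 and 0.79). The genes closest to *Tnfrsf18* were *Nt5e* (0.85 and 0.89), *Prkce* (0.81 and 0.89) and *Il3ra* (0.80 and 0.82). *Tnfrsf14* was most like *Abcg1* (0.98 and 0.92), *Cd14* (0.97 and 0.91) and *Ncf4* (0.97 and 0.93), of which the second is a surface protein of monocytes and the third a subunit of the phagocyte oxidase. *Tnfsf14* was most like *S100a8* (0.95 and 0.93), a calcium binding protein of neutrophils and monocytes, *Lamp2* (0.92 and 0.89) and *Stat3* (0.92 and 0.89).

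**Figure D5:**
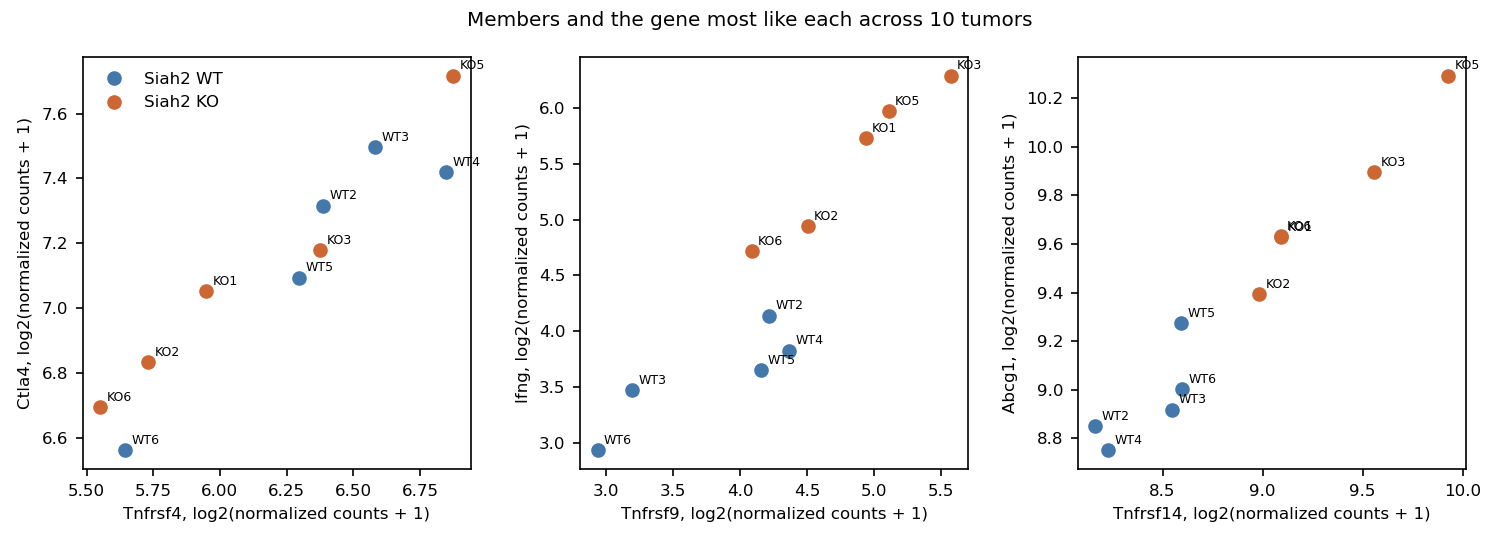
Log2(normalized counts + 1) of *Tnfrsf4*, *Tnfrsf9* and *Tnfrsf14* on the x axes against the gene with the highest Pearson's r on the y axes, with 1 point per tumor. For *Tnfrsf4* and *Ctla4* (r = 0.95) the groups are mixed along the diagonal, while for *Tnfrsf14* and *Abcg1* (r = 0.98) all *Siah2* KO tumors lie to the right of all WT tumors.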

How the data were processed

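Tumors of 5 *Siah2* WT and 5 *Siah2* KO hosts were grouped by the genotype in the labels. The authors deposited a signal per probe, normalized counts, made with nSolver 2.0 from the barcode counts in which the geometric mean of 20 reference genes set the scale of each tumor. The low values of every tumor, 100% of them within 0.1 of a whole step, showed that a background constant was subtracted, results below 1 were set to 1, and 1 factor per tumor was applied. Raw counts were not used, since the whole part of the constant is unknown. Of 784 probes, 6 positive and 8 negative controls were left out, and 770 (750 endogenous and 20 reference) were compared on log2(value + 1) by limma 3.58.1 in R 4.3.3. Subtracting background and adding 1 affect the low members most. Beside it stand two-sided exact permutation tests over the 252 divisions of the tumors. Replicates are separate tumors. The steps were tested on simulated data.

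The members and gene lists were chosen with earlier results of these data known. All members were named, the 3 genes most like each member of at least 20 normalized counts, and list genes at an adjusted p under 0.05. *Btla*, *Cd160*, *Ltbr*, *Lta*, *Cd27*, *Cd40*, *Cd70*, *Cd40lg*, *Traf2*, the NF-κB subunits, *Ctla4* and *Cd69* were named by list membership after their values were seen. The alternatives were median, quantile and positive control scaling, the 10 most stable reference genes, a pseudocount of 10, values raised to a floor of 20, only probes averaging at least 20 (the filter), no reference genes, equal and unequal variance tests, an intensity trend, a replicate block, the same tumors without it, each tumor left out, and, chosen after seeing the data, no pseudocount. The series text and the sample labels differ in the cells and mice they name, and the labels were followed. Promoter sequences came from RefSeq (GRCm38.p6). Plots used matplotlib 3.10.9 in Python 3.11.15.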

Additional observations from a re-analysis of the deposited data

How the results depend on the processing

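The count of members called, 3, moved under 7 of 14 alternatives. It was 1, *Tnfrsf14*, with median scaling, a floor of 20, the equal variance test, the unequal variance test, the replicate block and the same tumors without a block, and 0 with positive control scaling, where 95 in place of 316 of all probes were called. With each tumor left out it was between 1 and 4, and the count of all probes was between 268 and 334. Relative to T cell genes the count of 1 became 2 with a filter at a mean of 20 or a pseudocount of 10 and 0 with the equal and unequal variance tests (0 to 2 with a tumor left out). With a floor of 20, the intensity trend, the replicate block or WT6 left out it stayed at 1, but the member called was *Tnfrsf14* and not *Tnfrsf9*. Relative to leukocyte genes the count of 1 became 2 with the filter, 3 with the pseudocount of 10 or the floor, which sets *Tnfsf18* to 1 value in all *Siah2* KO tumors, and 0 with the replicate block (1 to 2 with a tumor left out). Relative to *Foxp3* the count of 7 became 4 with the filter, which leaves 5 members, and 4 with the replicate block or the same tumors without it (4 to 7). For other TNF superfamily genes the count of 4 became 8 with the 10 most stable reference genes, 8 with the filter and 7 with the pseudocount of 10 (4 to 6). For signalling genes the count of 5 became 8 with quantile normalization, 0 with positive control scaling, and 2 with the replicate block or without it on the same tumors (2 to 5). The cause of these changes was not tested, and no called value changed sign.

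Replicate numbers 2, 3, 5 and 6 occur in both genotypes. Deviations from the group means correlated with r of 0.035, 0.050, 0.17 and 0.35 over 770 probes in tumors of the same number, and each of these tumors correlated best with its own number. This is a hint that the numbers are shared for a reason, but the labels do not say what they stand for. The main fit treated the tumors as unpaired, and whether the numbers mark pairs was not tested. With the number as a block, *Tnfrsf14* was at 0.91 (limma adjusted p = 0.019), and *Tnfrsf9* at 1.19 (0.058) and *Tnfrsf8* at 0.80 (0.078) did not pass.

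Signal over background limits *Tnfsf4* and *Tnfsf8*, which lay at or near the negative controls in several tumors. The filter at a mean of 20 leaves both out, together with *Tnfrsf8* and *Tnfsf18*, and gives no value for them.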
